A study of Mus musculus with 28 samples.

Results

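The 10 genes described here encode parts of the adhesion and filament systems that mark an epithelial cell. They are the cadherins Cdh1 and Cdh17, the adhesion molecule Epcam, the alpha-catenin Ctnna1, the simple epithelial keratins Krt7, Krt8, Krt18, Krt19 and Krt20, and vimentin, Vim. They were chosen by name, with earlier results of these data known, and all 10 were among the 13519 genes counted. RNA was sequenced from colon organoids, cultures of colon epithelium grown as small three-dimensional bodies, of C57BL/6N mice. Every organoid carried VillinCreERT2, a Cre recombinase under the gut epithelial Villin promoter that is switched on by 4-hydroxytamoxifen (4-HT), together with APCflox/flox. Organoids with these alleles alone are called AC (1 donor mouse). PAC organoids carried in addition Trp53LSL-R172H/+, BAC organoids BraffloxV600E/+, and BPAC organoids both (2 donor mice each). Each donor gave 2 cultures, called duplicates 1 and 2 and described by the study as different passages, and each culture was split between the solvent ethanol (EtOH) and 3.5 µM 4-HT for 24 hours, with RNA taken 3 days later. This gave 28 samples, 2 per treatment in AC and 4 in each other genotype, with 20577276 to 40068718 counted reads each. No organoids without the Apc allele were compared, so an effect of 4-HT or of Cre itself cannot be told apart from that of the recombined alleles.

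Cadherins are calcium-dependent adhesion proteins whose outer domains bind those of the next cell. The tails of classical cadherins, through catenins, hold the junction to actin. Keratins build the intermediate filaments of epithelia from obligate pairs of a type II chain, here Krt7 or Krt8, with a type I chain, here Krt18, Krt19 or Krt20. In the intestine, Krt8, Krt18 and Krt19 run along the whole epithelium, whereas Krt20 and the non-classical cadherin Cdh17 are best known from differentiated cells. Krt7 is scarce in normal colon. Vim, the intermediate filament protein of mesenchymal cells, is often read together with a loss of Cdh1 as a sign of epithelial-mesenchymal transition.

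The Krt8 and Krt18 genes are neighbours on mouse chromosome 15 (GRCm38). Krt8, on the minus strand from 101996698 to 102004482, and Krt18, on the plus strand from 102028180 to 102032027, point away from each other with 23.7 kb between their annotated starts. Their transcripts moved differently, and so did that of Krt20 (minus strand of chromosome 11, 99428403 to 99438150). The promoter windows of these 3 genes are therefore shown, from RefSeq on GRCm38.p6, each from 250 bases before to 50 bases after the start and read 5′ to 3′ on the gene's strand. Such a window was found for 6 of the 10 genes (Epcam, Krt7, Krt8, Krt18, Krt20 and Vim). Capitals mark matches, on either strand, to 5 motifs: a TATA box (TATAAA), a CDX motif (CATAAA), a TCF/LEF motif (CTTTGAT), an AP-1 motif (TGANTCA) and the E-box bound by SNAI and ZEB factors (CAGGTG).
Krt20, chr11:99438104-99438403, minus strand: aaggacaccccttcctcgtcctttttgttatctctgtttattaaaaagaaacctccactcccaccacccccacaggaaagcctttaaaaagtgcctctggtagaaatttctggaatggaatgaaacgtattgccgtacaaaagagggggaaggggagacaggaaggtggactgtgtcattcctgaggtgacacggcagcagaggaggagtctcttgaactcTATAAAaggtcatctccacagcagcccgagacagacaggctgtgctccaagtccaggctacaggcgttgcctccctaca
Krt8, chr15:102004293-102004592, minus strand: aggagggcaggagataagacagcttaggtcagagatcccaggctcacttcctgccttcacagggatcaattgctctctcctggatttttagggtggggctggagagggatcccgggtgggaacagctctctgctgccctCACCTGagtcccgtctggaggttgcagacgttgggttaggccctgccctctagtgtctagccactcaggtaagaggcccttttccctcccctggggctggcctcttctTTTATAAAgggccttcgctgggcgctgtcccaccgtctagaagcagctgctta
Krt18, chr15:102027966-102028265, plus strand: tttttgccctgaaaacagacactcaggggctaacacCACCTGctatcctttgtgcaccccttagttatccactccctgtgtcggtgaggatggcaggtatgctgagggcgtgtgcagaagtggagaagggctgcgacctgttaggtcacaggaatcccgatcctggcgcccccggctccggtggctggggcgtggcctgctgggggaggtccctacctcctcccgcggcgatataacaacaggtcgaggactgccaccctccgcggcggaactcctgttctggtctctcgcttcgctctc
The Krt20 window held a TATA box, the Krt8 window 2 overlapping TATA matches, 1 on each strand, and an E-box, and the Krt18 window an E-box alone. Of the 32851 windows in the reference table, 13.6% held the TATA letters and 20.2% the E-box letters. Matches to the CDX, TCF/LEF and AP-1 letters, held by 11.8%, 3.73% and 7.81% of all windows, were not among these 3 sequences. These are descriptions of letters and not of bound sites.

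In these organoids Krt8 and Krt19 were the most abundant of the 10 transcripts and Vim the least. Levels between genes were compared in CPM per kb, that is read counts relative to the TMM-scaled library total, divided by the exon length of the gene (CPM, used throughout, is the same without the length). Krt8 stood first with 3912 ± 824 CPM per kb (SD over 28 samples), above Krt19 with 2998 ± 498 in all 28 samples. With the longest transcript as the length in place of the union of exons, Krt8 was above Krt19 in 26 of the 28, with means of 3912 and 3528 CPM per kb. Krt18 (1025 ± 225) and Epcam (1014 ± 219) had nearly the same mean, but their order turned with the treatment: Epcam was above Krt18 in 14 of 14 EtOH samples and Krt18 above Epcam in 14 of 14 4-HT samples. Krt20 (401 ± 268) and Cdh1 (322 ± 63.3) exchanged places likewise, Krt20 being the higher in 14 EtOH samples and in 1 4-HT sample. Cdh17 (266 ± 85.1) lay below Cdh1 in 26 of 28 samples, but in only 11, all with 4-HT, when the longest transcript replaced the union of exons as the length, so the order of the 2 cadherins depended on that choice.

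Krt7 (127 ± 38.5 CPM per kb) and Ctnna1 (85.2 ± 9.41) followed and overlapped. Vim, at 0.851 ± 0.258 CPM per kb, was below each of the other 9 in every sample. These 3 means depended most on the length, and with the longest transcript they were 218, 147 and 1.38 CPM per kb for Krt7, Ctnna1 and Vim. Ctnna1 is overlapped on the other strand by Lrrtm2, Krt7 by Gm671 and Krt8 by Gm36026, and the annotation holds a pseudogene of Krt8. Whether the counting used strand is not given in the sources used here, so reads of these partners could not be told apart. The plot of level per length shows the 10 genes in this order.

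**Figure D1:**
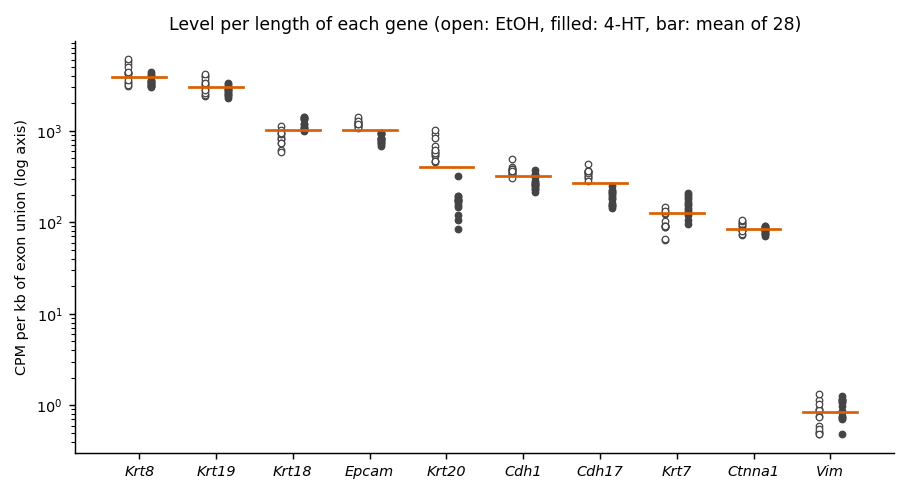
Level of each gene in CPM per kb of exon union (log axis) in the 28 samples, EtOH as open and 4-HT as filled points, with the mean of 28 as a bar. Vim, at 0.851 CPM per kb, lies far below the other 9 genes, and Krt18 and Epcam, with means of 1025 and 1014 CPM per kb, are ordered oppositely with EtOH and with 4-HT.

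The samples carried the RNA of a colon epithelium. All 10 colon epithelial markers used for this check (such as Vil1, Cdx2, Lgals4 and Muc2) were counted and none was at 0 in any sample. Their summed level ran from 20578 to 31049.8 CPM with EtOH and from 8867 to 17008 CPM with 4-HT, Car1 being the largest term. Of 11 fibroblast and smooth muscle markers only Pdgfrb was among the genes analysed, of 10 immune markers Cd3e, Itgam and Cd74, of 6 endothelial markers Pecam1 and Emcn, and of 6 neuronal and glial markers Tubb3. The analysed genes of each of these lists summed to at most 13.7 CPM in any sample, and the levels of the other markers are not known. Trp53, whose LSL allele is silent until recombined, was at 51.4 to 66.0 CPM in PAC and BPAC and at 97.9 to 122 CPM in AC and BAC with EtOH, and at 148 to 227 CPM in all genotypes with 4-HT. Apc was counted over the whole gene, which does not test the loss of the floxed exon.

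A pair of libraries went against their labels. The 4-HT libraries of duplicate 1 of PAC donors 1 and 2 both held Xist (25.2 and 22.0 CPM) together with Y-linked transcripts (Ddx3y, Eif2s3y, Kdm5d and Uty, in sum 55.0 and 53.5 CPM), which no other of the 28 samples did (both over 1 CPM). The other libraries of donor 1 held the Y-linked transcripts and those of donor 2 Xist. The 2 libraries were closer to each other than any other 2 samples of a group, but they differed by more than sampling noise and were kept as 2 samples. PAC changes are therefore given with and without both cultures of duplicate 1. Without them 48 of the 13519 genes and 0 of the 10 were called in PAC, where 3 of the 10 had an unadjusted p under 0.05.

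**Figure D2:**
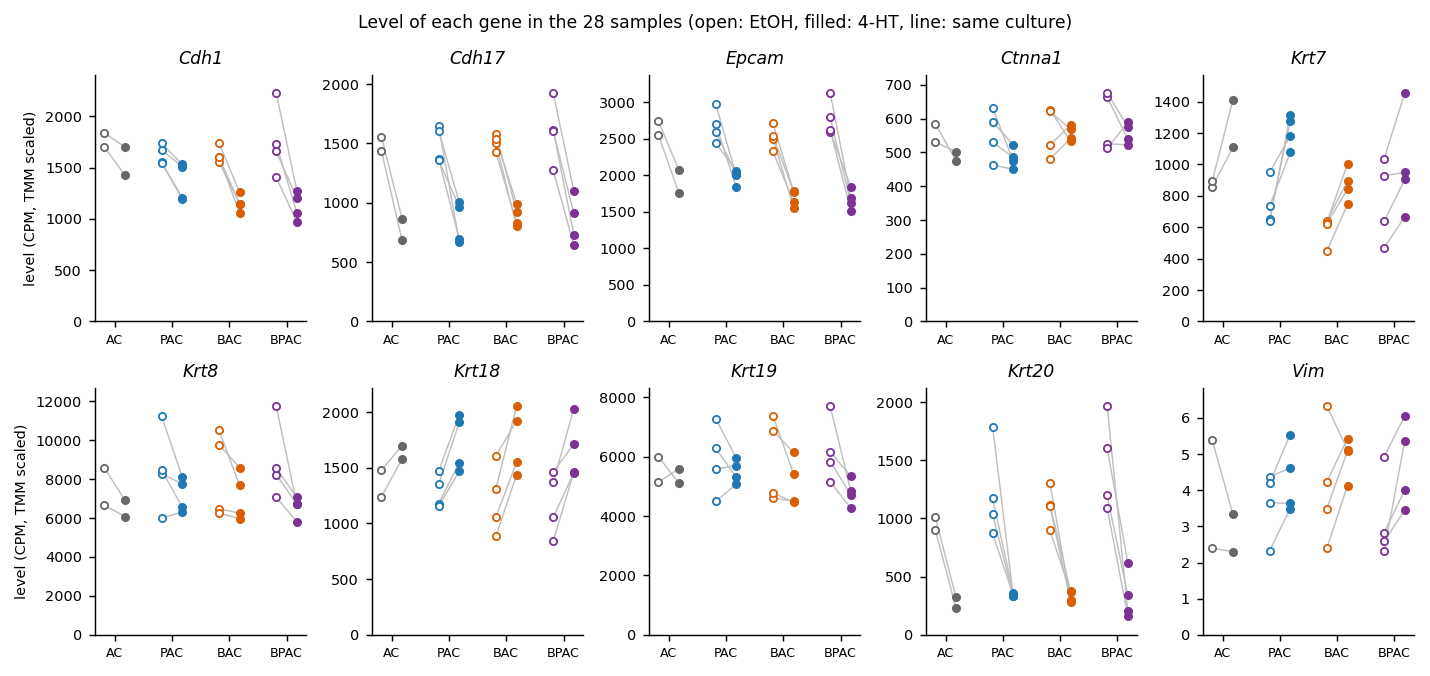
Level of each gene in CPM (linear axes from 0) in every sample of the 4 genotypes, EtOH open and 4-HT filled, with a line joining the 2 treatments of a culture. With 4-HT, Cdh1, Cdh17, Epcam and Krt20 are lower along all 14 lines, Krt7 and Krt18 are higher along all 14, and Vim lies between 2.30 and 6.33 CPM.

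The first question was which of the 10 genes changed when the alleles were recombined in each genotype. The test was edgeR's quasi-likelihood F test on all 13519 genes together, and a gene was called at an adjusted p (Benjamini-Hochberg) under 0.01. In AC 2 of 10 fell (Cdh17 and Krt20), in a comparison where 7.25% of all genes were called. In PAC 3 of 10 fell (Cdh17, Epcam and Krt20), against 23.4% of all genes. In BAC and in BPAC 4 of 10 fell (Cdh1, Cdh17, Epcam and Krt20), against 41.9% and 45.0% of all genes. None of the 10 rose by this test. Whether these shares differ from those of all genes was not tested. Without the PAC duplicate 1 cultures 0 of the 10 were called in PAC, beside 48 of all genes. The median log2 change of the 10 was -0.21, -0.22, -0.21 and -0.41 in AC, PAC, BAC and BPAC in turn, beside 0.0080, -0.027, -0.036 and -0.035 over all genes.

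By the labels, the 2 treatments of a culture share their cells. With the culture as a block in the fit, 8 of 10 genes were called in BPAC, 6 each in BAC and PAC and 3 in AC, and the calls then included rises: Krt7 and Krt18 rose in PAC, BAC and BPAC. Against these counts, the same fit called 54.4%, 51.9%, 34.9% and 16.4% of all genes in BPAC, BAC, PAC and AC (7358, 7017, 4717 and 2223 of 13519). In PAC the block pairs the 2 libraries in doubt with the EtOH libraries of their labels. Blocked values for PAC and for the Braf effect, here and below, rest on that pairing. No blocked fit left those cultures out. Scaling by library size alone, without TMM, moved the median log2 change of all genes to 0.229, 0.198, 0.131 and 0.179 in AC, PAC, BAC and BPAC in turn. The split of all called genes into higher and lower then went from 406 and 574 to 1511 and 302 in AC, from 1511 and 1655 to 3388 and 737 in PAC, from 2751 and 2909 to 3881 and 2066 in BAC and from 2979 and 3110 to 4331 and 2038 in BPAC. On that scale Krt18 passed as higher in PAC, BAC and BPAC and Krt7 in PAC and BAC, while Cdh1 in BAC (-0.33, adjusted p = 0.0162), Cdh17 in AC (-0.73, adjusted p = 0.0131) and Epcam in PAC (-0.21, adjusted p = 0.0521) were no longer called. The changes below are on the TMM scale.

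Krt20, the type I keratin of differentiated intestinal cells, showed the largest change of the 10 in every genotype. In the order donor 1 duplicates 1 and 2, donor 2 duplicates 1 and 2, which is kept below, Krt20 in BPAC was at 1965, 1603, 1089.8 and 1197 CPM with EtOH and at 202, 620.3, 164 and 341 CPM with 4-HT. BAC cultures held 1308, 1119, 1106 and 898 CPM with EtOH and 300.1, 377, 283 and 369 CPM with 4-HT. Both groups were fully separated, and within BPAC the fall was deeper in both duplicate 1 cultures. PAC cultures held 1035, 871, 1789 and 1172 CPM with EtOH and 337, 337, 332 and 357 CPM with 4-HT, and the single AC donor 1012 and 901 CPM and 321 and 231 CPM. No 4-HT sample of any genotype reached the lowest EtOH sample. The fitted log2 change was deepest in BPAC, at -2.14 ± 0.29 (SE, adjusted p = 1.25e-06), followed by PAC at -1.84 ± 0.29 (adjusted p = 5.55e-05), AC at -1.79 ± 0.41 (adjusted p = 0.00437) and BAC at -1.74 ± 0.29 (adjusted p = 2.15e-05). In BPAC this left 22.7% of the EtOH level. Fitted on duplicate 1 alone the BPAC change was -3.07, and on duplicate 2 alone -1.54. On duplicate 2 alone BPAC was not the deepest, with AC at -1.96, PAC at -1.56 and BAC at -1.43. Without both PAC duplicate 1 cultures the PAC change was -1.56 ± 0.41 (adjusted p = 0.0342), which no longer passed the threshold, as without PAC donor 2. The AC call was lost without either AC culture (log2 change -1.66 or -1.96). In bulk RNA, fewer Krt20-expressing cells and less Krt20 RNA per cell cannot be told apart, and the same holds for each gene below.

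Cdh17, the intestinal cadherin also called LI-cadherin, fell in all 4 genotypes, with no overlap between treatments in any genotype. Values were 1440.0 and 1558 CPM with EtOH and 685 and 867 CPM with 4-HT in AC. PAC cultures gave 1371, 1359, 1644 and 1607 CPM with EtOH and 693, 967, 670.4 and 1004 CPM with 4-HT. The 2 PAC libraries in doubt, those of duplicate 1, were the lower ones of their group. BAC cultures gave 1501, 1583, 1425 and 1540.0 CPM with EtOH and 803, 927, 832 and 994 CPM with 4-HT, and BPAC cultures 1615, 1927, 1273 and 1606 CPM and 731, 1100.4, 644 and 910.4 CPM. The log2 change (± SE) lay close together in the 4 genotypes, -0.95 ± 0.22, -0.84 ± 0.15, -0.77 ± 0.15 and -0.92 ± 0.15 in AC, PAC, BAC and BPAC in turn, with adjusted p of 0.00445, 0.000203, 0.000186 and 1.8e-05. Without the PAC duplicate 1 cultures it was -0.59 in PAC and not called (adjusted p = 0.0808), nor was it without PAC donor 2 (-0.72). The AC call was lost without either AC culture (log2 change -0.84 or -1.07), and the BAC call without BAC donor 1 (-0.70).

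Cdh1, E-cadherin, the classical cadherin of the adherens junction, fell in BAC and BPAC and was not called in AC or PAC. AC cultures held 1701 and 1838 CPM with EtOH and 1426 and 1701 CPM with 4-HT, and PAC cultures 1551, 1672, 1548 and 1736 CPM and 1208, 1509, 1192 and 1532 CPM. In BAC Cdh1 was at 1601, 1557, 1604 and 1742 CPM with EtOH and at 1060.2, 1150.3, 1149 and 1259 CPM with 4-HT. BPAC cultures held 1729, 2230.1, 1406 and 1659 CPM with EtOH and 1062, 1275, 970.4 and 1205 CPM with 4-HT. The treatments did not overlap within a genotype, although in AC the lowest EtOH and the highest 4-HT sample were less than 1 CPM apart. With 4-HT, the PAC samples of duplicate 1 (1208 and 1192 CPM) lay within the range of those with the Braf allele (970.4 to 1275 CPM), and the PAC samples of duplicate 2 and the AC samples lay above it. The log2 change in BPAC was -0.64 ± 0.12 (SE, adjusted p = 6.63e-05), and that in BAC -0.49 ± 0.12 (adjusted p = 0.0011). PAC stood at -0.26 ± 0.12 (adjusted p = 0.0892) and AC at -0.18 ± 0.17 (adjusted p = 0.511). The PAC change passed with the culture as a block (-0.27, adjusted p = 0.00701), while without the PAC duplicate 1 cultures it was -0.16. The BAC call was lost without culture 1-1 (log2 change -0.46) or without either BAC donor (-0.47 and -0.51).

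Epcam, a homotypic adhesion protein of simple epithelia that is no cadherin, fell in PAC, BAC and BPAC and was lower with 4-HT in all 14 cultures. BPAC cultures held 3126, 2595, 2789.7 and 2622 CPM with EtOH and 1685, 1841, 1624 and 1512 CPM with 4-HT. BAC cultures held 2707, 2501, 2542 and 2325 CPM and 1781, 1556, 1776 and 1632 CPM. In PAC the values were 2589.9, 2439.6, 2974 and 2705 CPM with EtOH and 2016, 2062, 1998 and 1834 CPM with 4-HT. Here too the treatments were separated in each genotype, AC included (2739 and 2551 CPM against 2066 and 1752 CPM). The log2 change was -0.44 ± 0.088 in PAC, -0.58 ± 0.088 in BAC and -0.74 ± 0.088 in BPAC (SE, adjusted p = 0.000473, 6.19e-06 and 1.5e-07). In AC it was -0.47 ± 0.12 and missed the threshold (adjusted p = 0.0112), which it passed with the block (adjusted p = 0.00562). The PAC call did not hold without the PAC duplicate 1 cultures (-0.40, adjusted p = 0.0664), without PAC donor 2 (-0.30) or when samples were scaled by library size alone (-0.21). Ctnna1, alpha-catenin, which couples the cadherin-bound catenin to actin, stayed between 450.4 and 677 CPM, and its log2 change ran from -0.20 in PAC (-0.11 without the PAC duplicate 1 cultures, adjusted p = 0.686) to -0.017 in BAC and was not called, with a sign that turned in each genotype when samples were scaled by library size alone (0.028, 0.026, 0.15 and 0.12 in AC, PAC, BAC and BPAC).

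**Figure D3:**
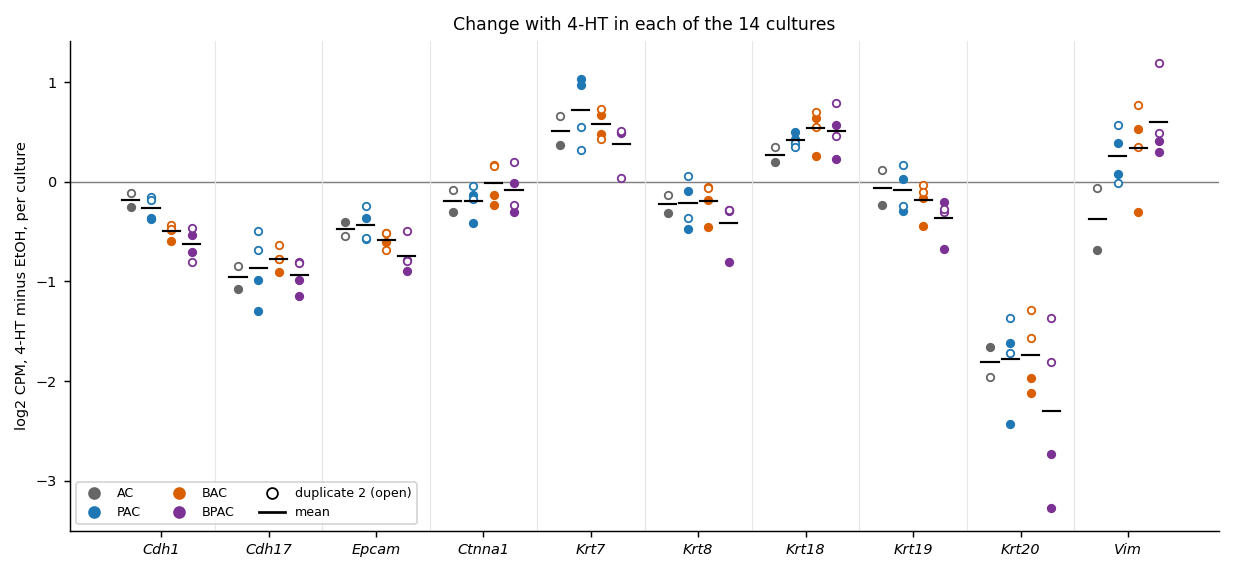
Difference in log2 CPM (prior count 2) between 4-HT and EtOH in each of the 14 cultures, by gene and genotype, duplicate 1 filled and duplicate 2 open, with the mean as a black bar. Krt20 lies between -3.28 and -1.28, Cdh17 between -1.29 and -0.49, and Krt7 and Krt18 lie above 0 in every culture.

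The keratins did not move as one group. Krt18, the type I partner of Krt8, was higher with 4-HT in 14 of 14 cultures, by 0.20 to 0.79 on the log2 scale. BPAC cultures went from 1459.8, 842, 1368 and 1053 CPM with EtOH to 1714, 1459, 2031 and 1454 CPM with 4-HT, and BAC cultures from 1606, 1058, 1312 and 885 CPM to 1922, 1547, 2053 and 1438 CPM. In both genotypes the groups overlapped across cultures although each culture's own pair was ordered the same way. PAC cultures went from 1353, 1177, 1469 and 1153 CPM to 1908, 1545, 1976 and 1470.0 CPM, and AC cultures from 1478 and 1239 CPM to 1698 and 1576 CPM, here without overlap. Unblocked, the log2 change was 0.27 ± 0.25, 0.42 ± 0.18, 0.52 ± 0.18 and 0.50 ± 0.18 in AC, PAC, BAC and BPAC in turn (SE), with adjusted p of 0.512, 0.0656, 0.0166 and 0.0203. With the culture as a block the change passed in the 3 genotypes with more than 1 donor, at 0.42 (PAC), 0.54 (BAC) and 0.52 (BPAC), the adjusted p being 0.00114, 6.35e-05 and 8.94e-05 in that order. Without the PAC duplicate 1 cultures it was 0.37 in PAC (unblocked, adjusted p = 0.385).

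Krt7, a type II keratin of ductal and glandular epithelia, was likewise higher with 4-HT in 14 of 14 cultures, by 0.034 to 1.04 on the log2 scale. PAC cultures went from 652, 734, 641 and 949 CPM to 1277, 1076, 1315 and 1182 CPM and AC cultures from 858 and 895 CPM to 1109.8 and 1413 CPM. BAC cultures went from 640.3, 449, 630.1 and 623 CPM to 895, 746, 1003 and 841 CPM. BPAC cultures went from 637, 468, 1037 and 928 CPM to 905, 667, 1456 and 950.4 CPM. The treatments were separated in AC, PAC and BAC and overlapped in BPAC, where donor 2 was above donor 1 with either treatment. The log2 change was 0.70 ± 0.21 in PAC (SE, adjusted p = 0.0113) and 0.57 ± 0.21 in BAC (adjusted p = 0.0245), and 0.52 and 0.37 in AC and BPAC (adjusted p = 0.243 and 0.135). With the block the adjusted p became 9.38e-05, 0.000285 and 0.00654 in PAC, BAC and BPAC, all past the threshold. Without the PAC duplicate 1 cultures the PAC change was 0.42 (adjusted p = 0.421).

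Krt8 and Krt19, the most abundant type II and type I chains, were not called in any genotype. Krt8 ran from 6026 to 11760.1 CPM with EtOH (median 8369) and from 5825 to 8602 CPM with 4-HT (median 6716), and was lower with 4-HT in 13 of 14 cultures. Krt19 ran from 4490.3 to 7702 CPM with EtOH and from 4260.3 to 6142 CPM with 4-HT, lower in 11 of 14 cultures. In BPAC the log2 change was -0.44 ± 0.19 for Krt8 and -0.38 ± 0.16 for Krt19 (SE, adjusted p = 0.051 and 0.0474), and both passed with the block (adjusted p = 0.00344 and 0.00567). Neither was called elsewhere with the block. Without the PAC duplicate 1 cultures the PAC change was -0.17 for Krt8 and -0.054 for Krt19 (adjusted p = 0.715 and 0.91). In the other genotypes the changes lay between -0.24 (Krt8, PAC) and -0.06 (Krt19, AC). Over the 28 samples the levels of Krt8 and Krt19 followed each other with a Pearson r of 0.95 in log2 CPM, a description over samples that share treatment and culture.

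A ratio within a sample does not depend on how samples are scaled, so the make-up of the keratin transcripts was compared in CPM per kb. Krt20 made up 10.96% to 18.2% of the type I sum (Krt18, Krt19 and Krt20) in the 14 EtOH samples and 1.94% to 8.29% in the 14 4-HT samples. The share of Krt18 went the other way, from 12.8% to 22.2% with EtOH to 25.1% to 32.3% with 4-HT. Neither share overlapped between treatments, in any genotype. Krt19 kept the bulk of the type I sum, 68.1% ± 1.82 with EtOH and 67.3% ± 1.73 with 4-HT (SD, n = 14), a difference smaller than the spread. The ratio of Krt18 to its neighbour and partner Krt8 was 0.139 to 0.266 with EtOH and 0.296 to 0.392 with 4-HT, and was higher with 4-HT in 14 of 14 cultures. By genotype it went from 0.244 ± 0.0133 to 0.344 ± 0.0134 in AC (SD, n = 2) and from 0.182 ± 0.0351 to 0.344 ± 0.0392 in BPAC (SD, n = 4). In BAC it went from 0.201 ± 0.0173 to 0.333 ± 0.00742, and in PAC from 0.213 ± 0.0403 to 0.327 ± 0.0143 (n = 4 each). In the 2 PAC cultures of duplicate 2 alone it went from 0.266 to 0.334 and from 0.186 to 0.305. Krt7 went from 2.44% ± 0.798 to 4.11% ± 0.937 of the type II sum (Krt7 and Krt8), and did so within each of the 14 cultures although the ranges overlapped. The size of that share depended on the gene length: with the longest transcript, chosen after seeing the data, it went from 4.12% ± 1.33 to 6.87% ± 1.52, again higher with 4-HT in 14 of 14 cultures. The Krt18 and Krt20 shares with that length still did not overlap between treatments. Type II over type I was 0.930 ± 0.0429 with EtOH and 0.886 ± 0.0375 with 4-HT, and was lower with 4-HT in 13 of 14 cultures.

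**Figure D4:**
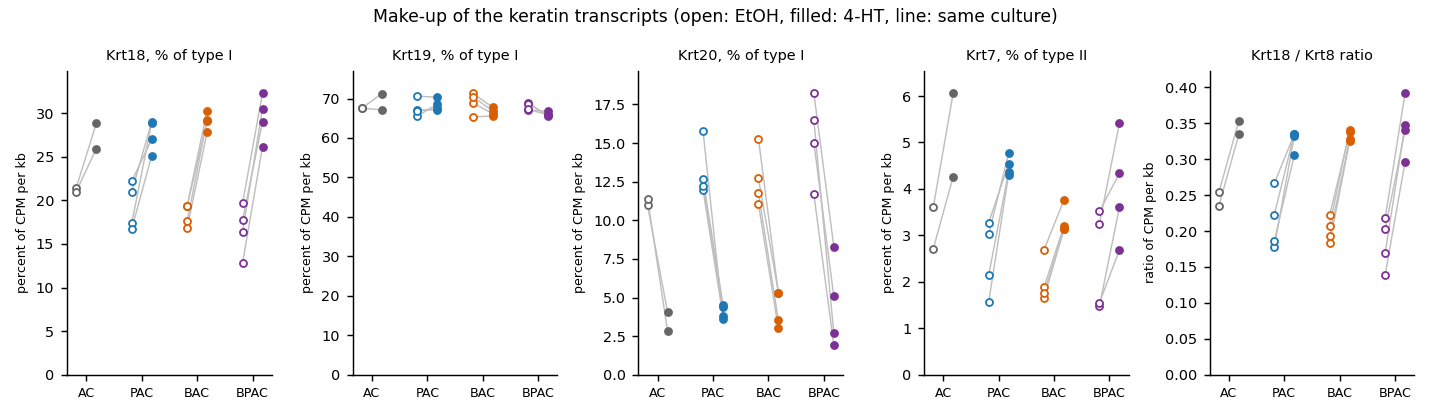
Share of Krt18, Krt19 and Krt20 in the type I sum and of Krt7 in the type II sum (percent of CPM per kb), and the ratio of Krt18 to Krt8, in each sample by genotype, EtOH open and 4-HT filled, lines joining a culture. The Krt18 share and the Krt18 to Krt8 ratio rise and the Krt20 share falls along all 14 lines, while Krt19 holds 65.3% to 71.4% throughout.

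The 2 cadherins parted as well. Cdh17 over Cdh1, in CPM per kb, was 0.933 ± 0.0700 with EtOH and 0.692 ± 0.117 with 4-HT (SD, n = 14) and was lower with 4-HT in 14 of 14 cultures. With 4-HT it was 0.506 ± 0.0215 in AC (n = 2), 0.622 ± 0.0477 in PAC, 0.786 ± 0.0368 in BAC and 0.759 ± 0.0912 in BPAC (n = 4 each). The 8 samples with the Braf allele lay above the 6 without it, with no overlap (lowest BPAC sample 0.678, highest PAC sample 0.670). The PAC samples of duplicate 2 were at 0.656 and 0.670, so the separation was the same without those of duplicate 1. It was noticed after the values were seen and was not tested.

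Vim was the lowest of the 10 genes in all groups, and its 4-HT change was not called in any genotype. It was counted with 55 to 251 reads per sample. BPAC cultures held 4.92, 2.83, 2.58 and 2.31 CPM with EtOH and 6.07, 4.01, 3.45 and 5.38 CPM with 4-HT, and BAC cultures 6.33, 4.24, 3.49 and 2.40 CPM and 5.12, 5.43, 5.09 and 4.13 CPM. PAC cultures held 4.37, 3.66, 4.21 and 2.33 CPM and 4.62, 3.64, 5.54 and 3.49 CPM, and AC cultures 5.38 and 2.40 CPM and 3.33 and 2.30 CPM. The treatments overlapped in each genotype. The log2 change was -0.46 ± 0.42, 0.25 ± 0.29, 0.27 ± 0.29 and 0.59 ± 0.30 in AC, PAC, BAC and BPAC in turn (SE), and none was called (adjusted p = 0.497, 0.536, 0.454 and 0.0952). The PAC change of Vim without the duplicate 1 cultures was 0.26 (adjusted p = 0.753). Beside it, Pdgfrb, the only fibroblast marker analysed, went from 3.38 to 13.7 CPM with EtOH to 0.238 to 3.83 CPM with 4-HT. Whether the few Vim reads came from epithelial or from other cells was not tested.

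The second question was whether the Braf allele changed the response. The effect on the 4-HT change was the difference between the changes of BAC and BPAC and those of AC and PAC, and none of the 10 genes passed, where 6.61% of all genes did. Of the 10, 2 had an unadjusted p under 0.05. The largest of these was Cdh1, at -0.35 ± 0.13 (SE, adjusted p = 0.0777), and with the culture as a block it passed (-0.34, adjusted p = 0.00698), when 1891 genes were called. Without the PAC duplicate 1 cultures it was -0.39 (unblocked, adjusted p = 0.0652). Epcam was the other, at -0.21 ± 0.10 (adjusted p = 0.165). For Krt20 the effect was -0.12 ± 0.32 and differed in sign between duplicates, -0.68 in duplicate 1 and 0.27 in duplicate 2. Vim stood at 0.54 ± 0.33 (adjusted p = 0.301). The Trp53 allele, compared likewise, gave no call among the 10 and none with an unadjusted p under 0.05, where 0.0148% of all genes, 2 in number, were called and 140 had an unadjusted p under 0.05. DESeq2's Wald test and limma-voom also called 0 of the 10 for either allele's effect on the change. Of all genes they called 1449 and 889 for the Braf allele, and 2 and 1 for the Trp53 allele.

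Compared at the level reached with 4-HT, 1 of the 10 genes differed by the Braf allele, against 30.2% of all genes. Cdh1 was lower with it, by a log2 difference of -0.35 ± 0.092 (SE, adjusted p = 0.00338), with 1155 ± 81.3 CPM in BAC and 1128 ± 138 CPM in BPAC beside 1360.1 ± 186 CPM in PAC (SD, n = 4) and 1564 ± 194 CPM in AC (n = 2). The difference kept its sign and lay between -0.41 and -0.29 when any culture or donor was left out, but its call was lost without AC culture 1-2 (-0.29), PAC culture 1-2 (-0.32), BAC culture 1-1 (-0.33) or any single PAC or BAC donor. Without both PAC duplicate 1 cultures it was -0.43 (adjusted p = 0.0013). With donors summed, which left 1 AC sample per treatment, it was -0.34 and no longer passed. Epcam (-0.21, adjusted p = 0.0146) and Krt7 (-0.41, adjusted p = 0.0469) were lower without passing. Epcam passed with DESeq2's Wald test (adjusted p = 0.00457), with library size alone (adjusted p = 0.00792), with genes kept above 1 CPM in 14 samples (adjusted p = 0.00697) and with duplicate as covariate (adjusted p = 0.00319). It also passed without BPAC culture 1-2 (-0.24, adjusted p = 0.00621) or BPAC donor 1 (-0.26, adjusted p = 0.0066). Krt7 passed without BPAC culture 2-1 (-0.53) or BPAC donor 2 (-0.58), whose levels were the highest of their group. With EtOH none of the 10 differed by the Braf allele and none had an unadjusted p under 0.05, where 0.0296% of all genes were called and 2319 had an unadjusted p under 0.05. The contrasts with 4-HT share samples with the treatment comparisons above and are not independent of them.

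The duplicates of a donor also differed. With EtOH, 2 of the 10 genes differed between duplicates, against 9.64% of all genes. Duplicate 2 was lower in Krt8, at -0.47 ± 0.11 and in Krt18, at -0.43 ± 0.088 (log2, SE, adjusted p = 0.00791 and 0.00435), and Krt19 pointed the same way (-0.36, adjusted p = 0.0221). With the donor in place of the culture as a block Krt19 and Vim were called as well (adjusted p = 0.00278 and 0.00896), in a fit that called 15.6% of all genes. Krt8 was at 8272 to 11760 CPM in duplicate 1 and at 6026 to 8465 CPM in duplicate 2. With 4-HT, 4 of the 10 differed, against 24.6% of all genes: duplicate 2 was higher in Cdh1 (0.26 ± 0.041, adjusted p = 0.000303) and Cdh17 (0.43 ± 0.057, adjusted p = 8.72e-05) and lower in Krt8 (-0.27 ± 0.052, adjusted p = 0.00138) and Krt18 (-0.34 ± 0.051, adjusted p = 0.000215). Both EtOH calls were lost, and that of Krt8 with 4-HT, without the PAC duplicate 1 cultures (Krt8 -0.49 and -0.24, Krt18 -0.50). When 1 culture or donor was left out, the EtOH call of Krt8 was lost in 12 of 20 cases (without either AC culture, any BAC culture or donor, BPAC cultures 1-1 or 2-2, or PAC cultures 1-2 or 2-1) and that of Krt18 in 6 of 20 (without BAC cultures 1-1 or 2-2, either BAC donor, BPAC culture 1-1 or PAC donor 2). The differences then lay between -0.53 and -0.42 for Krt8 and between -0.48 and -0.37 for Krt18. The treatment comparisons hold both duplicates in each genotype. Fitted on duplicate 1 alone they called 4, 5, 5 and 1 of the 10 genes in BPAC, BAC, PAC and AC, and on duplicate 2 alone 5, 4, 0 and 0. Over all genes the same fits called 5868, 5169, 3968 and 894 on duplicate 1 and 2997, 2838, 7 and 13 on duplicate 2.

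**Figure D5:**
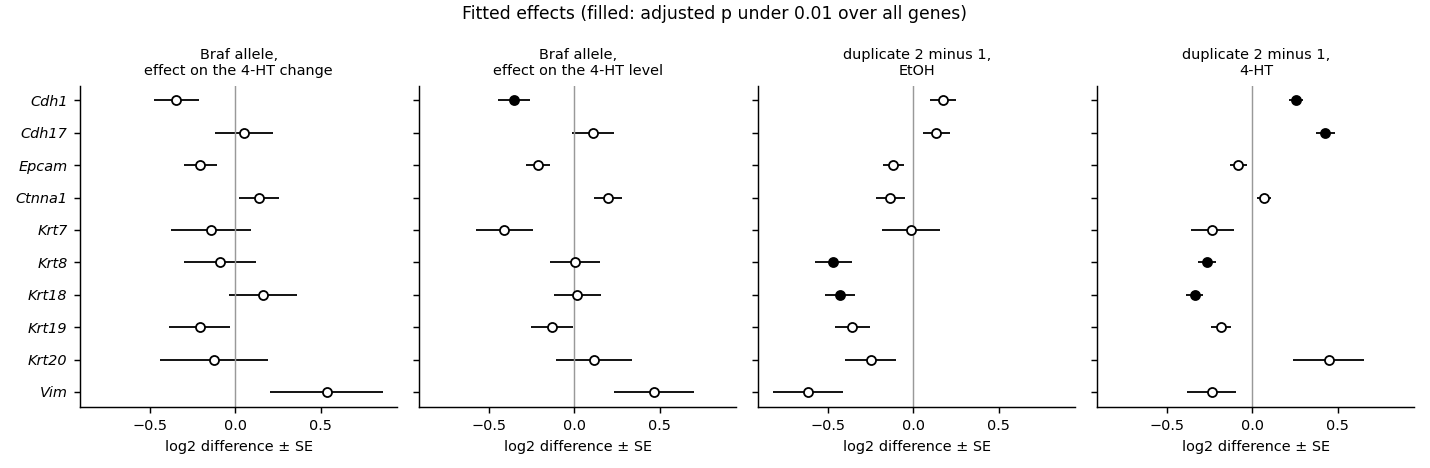
Fitted log2 differences with their standard errors for the Braf allele (effect on the 4-HT change and on the 4-HT level) and for duplicate 2 against duplicate 1 with either treatment, filled where the adjusted p over all genes was under 0.01. Of the Braf effects only the Cdh1 level with 4-HT, at -0.35, is filled, and the duplicates differ in Krt8 and Krt18 with both treatments.

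Other genes of the same structures were described by lists, of which the 3 genes with the largest change in BPAC are named. In PAC, leaving out the duplicate 1 cultures, 0 genes of each of the 7 lists were called, with 1, 6, 6, 1, 2, 6 and 10 at an unadjusted p under 0.05 in the order of the lists, so the PAC counts below rest on those cultures. Among 18 analysed genes of the adherens junction and its catenins, 1 rose and 4 fell in BPAC, 2 and 4 in BAC, 1 and 1 in PAC, and 0 and 0 in AC (in the same order 2 and 7, 3 and 6, 3 and 3, and 1 and 1 with the culture as a block), that is 27.8%, 33.3%, 11.1% and 0% of the list called beside 45.0%, 41.9%, 23.4% and 7.25% of all genes. Their median log2 change in BPAC was -0.20. Those named all fell in BPAC: the actin-binding protein Lima1 (-0.74 ± 0.13, adjusted p = 3.55e-05), plakoglobin, Jup, which serves adherens junctions and desmosomes (-0.67 ± 0.12, adjusted p = 7.09e-05), and the adhesion receptor Nectin2 (-0.63 ± 0.09, adjusted p = 1.67e-06). Of 16 other cadherins and protocadherins, 2 rose and 5 fell in BPAC, 2 and 3 in BAC, 1 and 2 in PAC, and 0 and 2 in AC (in the same order 2 and 6, 2 and 4, 1 and 3, and 0 and 2 with the culture as a block), that is 43.8%, 31.2%, 18.8% and 12.5% of the list called beside 45.0%, 41.9%, 23.4% and 7.25% of all genes, with a median log2 change of -0.12 in BPAC. Cdhr5 (1750.4 ± 147 CPM with EtOH and 425 ± 85.0 CPM with 4-HT) and Cdhr2 (1662 ± 375 CPM with EtOH and 615 ± 153 CPM with 4-HT), the cadherins that link brush border microvilli, fell by 2.04 and 1.44 on the log2 scale, and Cdh13, a cadherin without a cytoplasmic tail, rose (1.45 ± 0.41, adjusted p = 0.00408). Cdhr5 was the only one whose change differed by the Braf allele (-0.81 ± 0.13, adjusted p = 0.000191), that is 6.25% of the list beside 6.61% of all genes.

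Desmosomes, the junctions to which keratin filaments are anchored, were represented by 14 genes, of which 2 rose and 7 fell in BPAC, 2 and 6 in BAC, 2 and 6 in PAC, and 1 and 2 in AC (in the same order 2 and 8, 2 and 6, 2 and 7, and 1 and 5 with the culture as a block), that is 64.3%, 57.1%, 57.1% and 21.4% of the list called beside 45.0%, 41.9%, 23.4% and 7.25% of all genes, with a median log2 change of -0.40 in BPAC. Dsg3 (0.831 ± 0.125 CPM with EtOH and 2.97 ± 0.198 CPM with 4-HT) and Pkp1 (27.7 ± 0.895 CPM with EtOH and 69.7 ± 9.40 CPM with 4-HT), better known from stratified epithelia, rose by 1.84 and 1.33, and the cytolinker Dst fell (-1.44 ± 0.22, adjusted p = 4.05e-06). For Pkp1 the rise was larger with the Braf allele (0.72 ± 0.13, adjusted p = 0.000867), the only such call of the list, that is 7.14% beside 6.61% of all genes. Among 10 other keratins, 3 rose and 1 fell in BPAC, 4 and 0 in BAC, 1 and 0 in PAC, and 1 and 0 in AC (in the same order 4 and 1, 5 and 0, 4 and 0, and 1 and 0 with the culture as a block), that is 40%, 40%, 10% and 10% of the list called beside 45.0%, 41.9%, 23.4% and 7.25% of all genes. Past the threshold in BPAC at 1 CPM or more were Krt36 (1.39 ± 0.705 CPM with EtOH and 3.55 ± 0.306 CPM with 4-HT) and Krt23 (21.7 ± 6.55 CPM with EtOH and 37.0 ± 14.1 CPM with 4-HT), both higher with 4-HT. The median log2 change of the list in BPAC was 0.28. Of 9 other intermediate filament genes, 2 rose and 0 fell in BPAC, 3 and 0 in BAC, 2 and 0 in PAC, and 1 and 0 in AC (in the same order 3 and 0, 4 and 0, 5 and 0, and 1 and 0 with the culture as a block), that is 22.2%, 33.3%, 22.2% and 11.1% of the list called beside 45.0%, 41.9%, 23.4% and 7.25% of all genes. Those named were the nuclear lamins Lmnb1 (1.00 ± 0.11, adjusted p = 3.79e-08) and Lmnb2 (0.66 ± 0.13, adjusted p = 0.00014). The squamous keratins Krt4 and Krt13 and the cornified envelope gene Sprr1a summed to 173 to 898 CPM with EtOH and 145 to 334 CPM with 4-HT, most of it Sprr1a, with Krt13 at 0 in 6 samples.

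Of 15 regulators of epithelial-mesenchymal transition and mesenchymal genes that were analysed, 6 rose and 0 fell in BPAC, 7 and 1 in BAC, 7 and 0 in PAC, and 1 and 0 in AC (in the same order 9 and 1, 7 and 2, 7 and 1, and 3 and 1 with the culture as a block), that is 40%, 53.3%, 46.7% and 6.67% of the list called beside 45.0%, 41.9%, 23.4% and 7.25% of all genes, with a median log2 change of 0.53 in BPAC. The list had 31 genes, and those not analysed here included Zeb1, Zeb2, Snai1, Snai2 and Twist1. Named by the rule were the cytokine Tgfb1 (6.27 ± 0.813 CPM with EtOH and 22.1 ± 5.13 CPM with 4-HT), the actin linker Msn (8.61 ± 3.76 CPM with EtOH and 22.2 ± 5.87 CPM with 4-HT) and the hyaluronan receptor Cd44 (60.4 ± 18.6 CPM with EtOH and 154 ± 15.2 CPM with 4-HT), which also occurs on intestinal crypt cells. All 3 rose in BPAC (log2 change 1.82, 1.36 and 1.35). The rise of Tgfb1 was larger with the Braf allele (0.81 ± 0.19, adjusted p = 0.0052), a call of 6.67% of the list beside 6.61% of all genes. Without the PAC duplicate 1 cultures 0 genes of this list were called for that effect. Of 28 epithelial gatekeepers and identity factors, 5 rose and 10 fell in BPAC, 6 and 8 in BAC, 4 and 7 in PAC, and 1 and 4 in AC (in the same order 6 and 11, 7 and 12, 5 and 9, and 2 and 7 with the culture as a block), that is 53.6%, 50%, 39.3% and 17.9% of the list called beside 45.0%, 41.9%, 23.4% and 7.25% of all genes, with a median log2 change of -0.24 in BPAC. Klf4, a factor of differentiated epithelium, fell (273 ± 101 CPM with EtOH and 88.9 ± 19.8 CPM with 4-HT), and the forkhead factors Foxa3 and Foxa2 rose (adjusted p = 1.55e-08 for Foxa3, and for Foxa2 1.00 ± 0.21, adjusted p = 0.000305). Spint2, an inhibitor of membrane serine proteases, and the tight junction protein Marveld3 were the 2 genes of this list called for the Braf effect on the 4-HT change (-0.41 ± 0.08, adjusted p = 0.00198, and -0.38 ± 0.07, adjusted p = 0.000643). That is 7.14% of the list beside 6.61% of all genes. Of the adherens junction, keratin and intermediate filament lists 0% were called for this effect.

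The genes whose levels were most like those of each member were listed by Pearson's r of log2 CPM over the 28 samples, as a description, since the samples share treatment, donor and scaling. Krt20 was followed most closely by St3gal4 (r = 0.98), Hsd17b2 (r = 0.98) and Alpi (r = 0.98). For Cdh17 these were Trim31 (r = 0.98), Coro2a (r = 0.98) and Gng12 (r = 0.98), for Epcam Myl12b (r = 0.98), Spint1 (r = 0.98) and Prr15l (r = 0.97) and for Cdh1 Sort1 (r = 0.96), Akap13 (r = 0.96) and Lpar1 (r = 0.95). Ctnna1 went with Coro1c (r = 0.92), Ezr (r = 0.90) and Tollip (r = 0.89). Krt7 went with Ajuba (r = 0.94) and Grhl3 (r = 0.94), Krt18 with Bok (r = 0.96), Tpd52l2 (r = 0.93) and Nelfe (r = 0.93), Krt8 with Sqstm1 (r = 0.96), Krt19 (r = 0.95) and Rassf7 (r = 0.93) and Krt19 with Krt8 (r = 0.95), Sqstm1 (r = 0.89) and Naa80 (r = 0.87). Alpi encodes intestinal alkaline phosphatase, an enzyme of the mature brush border. Vim had no close companion (highest r = 0.75). Among the members themselves Cdh17 and Krt20 (r = 0.94) and Epcam and Krt20 (r = 0.91) went together, and Cdh17 and Krt18 (r = -0.82) went apart.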

How the data were processed

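RNA-seq counts of 28 organoid samples were analysed. The authors trimmed reads with Trimmomatic 0.39 and aligned them to GRCm38 with STAR 2.5.2b, and deposited raw counts per gene. Their methods keep genes with a row sum over 2, but the lowest row sum in the table was 116, so the level of a gene not analysed here is not known. The counting program, annotation and strandedness are not given in the sources used here. Symbols, positions and exon lengths came from GENCODE M21, and 40 of 13519 genes had no symbol. Groups came from the labels. The title of 1 BAC 4-HT sample has no duplicate number, and it was taken as duplicate 1, the one left for its donor. Genes were tested with edgeR 4.0.16 (R 4.3.3), a quasi-likelihood fit over 8 groups with TMM scaling and Benjamini-Hochberg adjustment over 13519 genes (threshold 0.01), after a check on simulated data. SE is the log2 change over the square root of F. Levels are TMM-scaled CPM, with a prior count of 2 on the log2 scale. Duplicates are passages of 2 donors at most, so p-values measure mainly the spread between cultures.

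By the labels, the 2 treatments of a culture come from 1 donor and passage, so blocked values are given where they changed a call. Their deviations from the group means correlated in each of 12 cultures (mean r 0.416, from 0.245 to 0.532). The duplicates differ in level and samples of different cultures were not compared, so this r cannot show pairing by culture. Differences between duplicates were blocked by donor instead, within each treatment. AC, with 1 donor, was not part of that check. The members and gene lists were chosen with earlier results of these data known. Of each list the 3 largest changes in BPAC, and in the Braf effect on the change, at 1 CPM or more on average were named, and for each member the 3 genes with the highest r, of which 1 is not reported here. DESeq2 1.42.0, limma 3.58.1, other filters, thresholds, scalings and left-out samples were alternatives. Leaving out both PAC cultures of duplicate 1 was chosen after seeing the data.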

Additional observations from a re-analysis of the deposited data

Results flagged for a closer look

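The level of Krt7 in BAC with EtOH had 1 sample far from the others, donor 1 duplicate 2 at 449 CPM beside 623 to 640.3 CPM. The log2 change of Krt7 in BPAC was 0.034 in donor 2 duplicate 2, beside 0.49 to 0.51 in the other 3 cultures. The log2 change of Krt8 in BPAC was -0.81 in donor 1 duplicate 1, beside -0.30 to -0.28 in the others. Each of these 3 values lay outside the limit of Dixon's test at 95%, which was applied to 90 groups of 4 samples and which chance alone passes in about 5% of groups. Vim was lower with 4-HT in both AC cultures and higher in all 4 BPAC cultures, with a mean log2 change of -0.37 in AC and 0.60 in BPAC, a difference of 0.97 that was not tested.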

How the results depend on the processing

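Of 54 tested values of single genes, recomputed 1193 times in all, 1070 kept their direction and their side of the threshold, 57 no longer passed, 46 newly passed and 20 changed sign. With library size alone the sign changed for Cdh1 in AC (0.042), Ctnna1 (0.028 in AC, 0.026 in PAC, 0.15 in BAC, 0.12 in BPAC) and Krt19 (0.16 in AC, 0.12 in PAC). It also changed for Ctnna1 in BAC with donors summed (0.0014), and on duplicate 2 alone for Krt19 in AC (0.12), Ctnna1 in BAC (0.16) and the Braf effect on the Krt20 change (0.27). Leaving out a culture or donor gave ranges of -0.23 to 0.12 (Krt19, AC), -0.27 to 0.096 (Krt19, PAC), -0.073 to 0.059 (Ctnna1, BAC), -0.26 to 0.097 (Ctnna1, BPAC), -0.0052 to 0.65 (Vim, BAC) and -0.35 to 0.051 (Krt20, Braf effect on the change).

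Of the 10 genes, the number called in AC (2) became 1 with library size alone, donors summed, AC fitted alone or duplicate 1 alone, 0 on duplicate 2 alone and 0 to 0 without either culture. The AC number was 3 with the culture block, DESeq2's Wald test or limma-voom, in each case with Epcam added. Epcam in AC also passed with genes kept above 1 CPM in 14 samples and with duplicate as covariate. Of all genes, AC had 980 called in the main fit, 1813 with library size alone, 2223 with the block, 1581 with DESeq2 and 992 with limma-voom. In PAC (3) the number became 6 with the culture block and 5 with duplicate as covariate or duplicate 1 alone. It became 0 on duplicate 2 alone or without the PAC duplicate 1 cultures, and 0 to 3 when 1 culture or donor was left out (0 without donor 2). Of all genes, PAC had 3166 called in the main fit, 4717 with the block, 3968 on duplicate 1 alone, 7 on duplicate 2 alone and 48 without those cultures. In BAC (4) the leave-out range was 2 to 4, with 2 without donor 1. In BPAC (4) the count became 8 with the block and 7 with duplicate as covariate, beside 6089 of all genes in the main fit and 7358 with the block. The Braf effect on the change (0) became 1 with the block, beside 893 of all genes in the main fit and 1891 with the block. For the Braf effect on the 4-HT level, 4084 of all genes were called in the main fit, 4703 with DESeq2 and 3894 with library size alone. The Braf effect on the 4-HT level (1) became 3 at a threshold of 0.05, 2 with DESeq2, library size alone, CPM above 1 in 14 samples or duplicate as covariate, 0 with donors summed or either duplicate alone, and 0 to 2 with a culture or donor left out. The duplicate difference with EtOH (2) became 4 at 0.05 or with the donor as a block, 0 without the PAC duplicate 1 cultures and 0 to 3 with a culture or donor left out. For the duplicate difference with EtOH, 1303 of all genes were called in the main fit, 2107 with the donor as a block and 369 without the PAC duplicate 1 cultures. All-gene numbers for the remaining settings are not given here. The cause of these shifts was not tested. Braf contrasts of levels could not be blocked, since each culture has 1 genotype. AC rests on 1 donor. Where 1 culture remained in a group, it was assumed to vary like the other groups.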
